A study of Mus musculus with 4 samples.

Results

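Interferon-gamma switches on a compact set of genes in nearly all nucleated cells, and 30 of them are described here in CD8-positive T cells taken from mouse melanomas. They were chosen by symbol from a fixed list, with no measured value in the rule, and all 30 were found among the 32285 genes of the matrices. The list itself was chosen with earlier results of these data known, so counts over it are a description. The set holds 2 regulators (Irf1, Nlrc5), 14 interferon-inducible GTPases, 3 peptide loading genes, 3 immunoproteasome subunits and 8 MHC class I genes.

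The study profiled CD8-positive T cells from B16F10 tumours, a transplantable mouse melanoma, by droplet single-cell sequencing of the 5-prime end of transcripts. Tumours came from C57BL/6J mice aged 6 to 8 weeks, and cells were sorted as live, CD45+, CD3+ and CD8+. The 2 groups, labelled sgScr and sgArid1a, have 2 samples each and differ in the guide RNA named: a scrambled control, or one against Arid1a, which encodes a DNA-binding subunit of the BAF chromatin remodelling complex. Neither the cells that received the guide nor the animals behind each sample are given in the labels, so the spread behind every p-value may be technical.

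Interferon-gamma, released by T and natural killer cells, acts through its receptor (Ifngr1, Ifngr2) and the kinases Jak1 and Jak2, and genes with GAS elements (gamma-activated sites), Irf1 among them, are induced. Irf1 and related factors then bind interferon-stimulated response elements (ISREs). The guanylate-binding proteins (GBPs) and immunity-related GTPases (IRGs) made in this way attack membranes around intracellular microbes. The immunoproteasome cuts proteins into peptides, the TAP transporter carries them into the endoplasmic reticulum, and MHC class I molecules with the light chain B2m show them to CD8-positive T cells. Nlrc5 drives class I genes through the X and Y boxes of their promoters.

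The promoters of the gene groups differed in exact matches to short motifs. RefSeq windows of 300 bases around annotated starts (250 before, 50 after, GRCm38.p6) were matched for 24 of the 30 genes. Nlrc5, Gbp4, Gbp6, Gbp8, Iigp1 and Tap2 were not matched. Both strands were searched for the letters GAAANNGAAA (called ISRE here), TTCNNNGAA (GAS) and GATTGG (Y box, an inverted CCAAT box). The ISRE letters stood in 9 of 10 GTPase genes, 0 of 5 peptide loading and immunoproteasome genes and 3 of 8 class I genes, against 3.44% of 32851 windows of all genes. The GAS letters stood in 6 of 10, 1 of 5 and 0 of 8 of these genes, against 8.30% of all windows. The Y box letters stood in 1 of 10, 2 of 5 and 8 of 8, against 16.1%. The 2 of 5 are Tap1 and Psmb9, whose matches are the same site counted for both genes. Neighbouring genes with recent common origin share promoter letters, so these counts are not independent, and a match is a run of letters and not a binding site.

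Stretches around these matches are printed 5′ to 3′ on each gene's strand, with the matched letters in capitals, because they show the elements named for each group. The first is Irf1, at chr11:53769909-53769947 on the plus strand, with a GAS match that starts 90 bases before the annotated start.
Irf1: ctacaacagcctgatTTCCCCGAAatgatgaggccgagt
Among the GBPs, Gbp2 (chr3:142620589-142620628, plus strand) held 1 ISRE, Gbp3 (chr3:142559984-142560029, plus) a pair that overlap, and Gbp7 (chr3:142530215-142530307, plus) 2 GAS matches followed by an ISRE.
Gbp2: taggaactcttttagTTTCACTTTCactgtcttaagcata
Gbp3: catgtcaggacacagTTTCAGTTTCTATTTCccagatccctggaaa
Gbp7: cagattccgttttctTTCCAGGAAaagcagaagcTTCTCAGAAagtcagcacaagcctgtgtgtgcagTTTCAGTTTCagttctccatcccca
Among the IRGs, Irgm1 (chr11:48871421-48871465, minus) held overlapping ISRE matches. Igtp (chr11:58199496-58199546, plus), Irgm2 (chr11:58214887-58214937, plus), Tgtp1 (chr11:48992299-48992349, minus) and Tgtp2 (chr11:49064258-49064308, minus) held the same arrangement, a GAS match, a gap of 2 bases and an ISRE.
Irgm1: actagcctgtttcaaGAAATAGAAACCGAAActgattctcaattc
Igtp: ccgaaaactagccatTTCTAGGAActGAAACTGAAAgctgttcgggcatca
Irgm2: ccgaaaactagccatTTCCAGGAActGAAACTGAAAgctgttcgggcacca
Tgtp1: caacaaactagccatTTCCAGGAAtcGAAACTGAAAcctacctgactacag
Tgtp2: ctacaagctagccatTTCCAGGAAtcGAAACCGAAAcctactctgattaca
The antigen presentation genes looked different. Tap1 (chr17:34187319-34187354, plus), H2-D1 (chr17:35263026-35263061, plus) and H2-Q4 (chr17:35379547-35379582, plus) held a Y box with no exact match to the ISRE letters. B2m (chr2:122147533-122147653, plus) and H2-T23 (chr17:36032733-36032840, minus) held both. The H2-D1 and H2-Q4 windows hold the similar run TTTCACTTCT further upstream, outside the printed stretches, which the search did not count. Lack of a match is therefore not lack of an ISRE.
Tap1: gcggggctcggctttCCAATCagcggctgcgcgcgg
H2-D1: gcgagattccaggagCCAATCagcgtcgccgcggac
H2-Q4: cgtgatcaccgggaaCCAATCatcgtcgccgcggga
B2m: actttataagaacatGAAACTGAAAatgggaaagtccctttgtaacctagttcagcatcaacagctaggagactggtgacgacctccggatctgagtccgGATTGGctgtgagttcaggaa
H2-T23: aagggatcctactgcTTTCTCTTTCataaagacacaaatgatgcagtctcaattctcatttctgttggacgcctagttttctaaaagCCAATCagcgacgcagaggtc
Tap1 and Psmb9 are transcribed away from each other, and their windows overlap by 275 bases, so they share most of 1 promoter region. The Y box printed for Tap1 starts 222 bases before the Tap1 start and is also the Psmb9 match, 9 bases before the Psmb9 start.

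**Figure D1:**
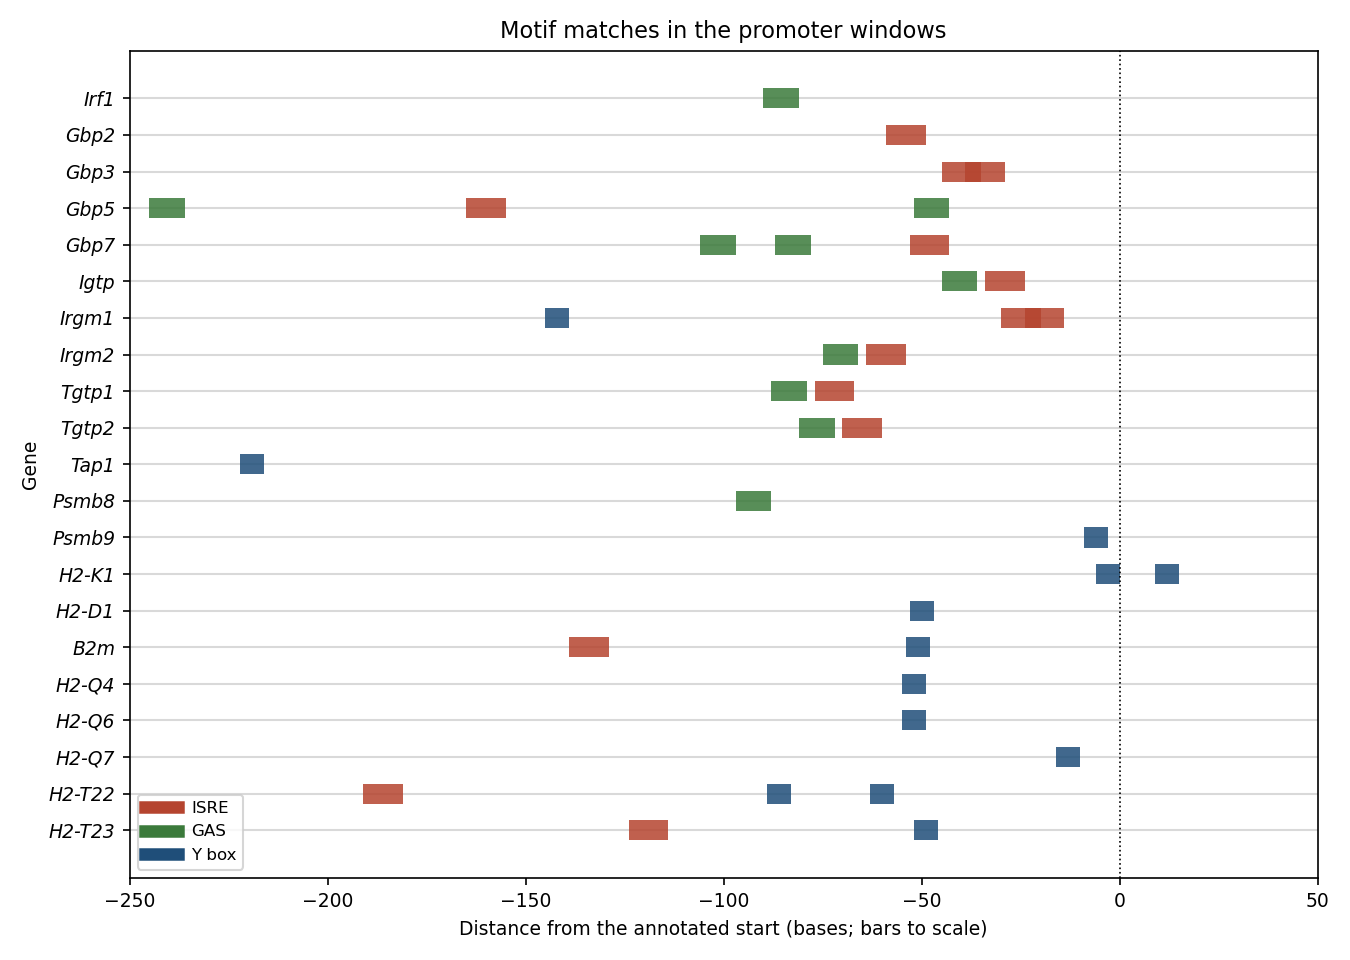
Each row is a gene with at least 1 match, the horizontal axis is the distance from the annotated start in bases, and coloured bars are matches of the 3 motifs drawn to scale, with H2-K1 shown for each of its annotated starts. ISRE and GAS matches fill the GTPase rows, with the same close pair in Igtp, Irgm2, Tgtp1 and Tgtp2, and Y boxes fill the class I rows, most of them within 100 bases of the start.

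After filtering, 38260 T cells were kept: 7636 and 7158 in the sgScr samples and 10695 and 12771 in the sgArid1a samples. The sums of their unique molecular identifiers (UMIs, 1 per captured transcript) were 35642152 and 32209615, and 39285383 and 81447081. Sample sgArid1a 1 was shallower than the others, with a median of 2407 UMIs per T cell against 3597 to 4025. Pairs of samples shared 74 to 218 cell barcodes. Arid1a itself was at 85.2 and 93.6 CPM (the gene's UMIs divided by the sample's total, times 1000000) in sgScr and at 74.1 and 72.6 in sgArid1a, a log2 fold change of -0.26 ± 0.06 (SE; edgeR's quasi-likelihood test, Benjamini-Hochberg adjusted p = 0.0042). The T cell genes Cd3e (log2 fold change 0.08, adjusted p = 0.32) and Cd8a (0.37, adjusted p = 0.00032, edgeR) were present throughout, at 874 to 947 and 525 to 702 CPM.

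Over all T cells, GTPase and immunoproteasome genes were mostly higher in sgArid1a and MHC class I genes were level or lower. Of the 30 genes, 14 were higher, 3 lower and 13 not called at an adjusted p under 0.05 (edgeR). The background was broad, since 28.0% of the 12792 tested genes were higher and 26.4% were lower. The median log2 fold change was 0.16 over the 30 genes and -0.02 over all tested genes. Both sgArid1a samples lay above both sgScr samples for 35.0% of all genes and below them for 41.1%. Each fold change below is on the log2 scale, sgArid1a over sgScr, with its standard error. In sums over all cells, a different mix of cell states and a different level per cell cannot be told apart. The class results further on address this only in part, since a class can itself hold a mix.

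The 2 regulators were not called. Irf1, the factor that binds ISREs, stood at 131 and 135 CPM in sgScr and 123 and 125 in sgArid1a (-0.07 ± 0.06, adjusted p = 0.35, edgeR). The sgArid1a pair was just below the sgScr pair. Nlrc5, the class I transactivator, was at 41.8 and 51.7 against 43.1 and 42.7 CPM, and the groups overlapped (-0.09 ± 0.08, adjusted p = 0.33, edgeR).

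Of the 7 GBPs, 5 rose in sgArid1a and 2 were not called. Gbp6 was at 27.5 and 27.7 CPM in sgScr and 41.6 and 47.4 in sgArid1a (0.72 ± 0.07, adjusted p = 1.2e-06, edgeR). Gbp3 was at 17.9 and 18.6 against 24.4 and 25.2 CPM (0.47 ± 0.07, adjusted p = 6.9e-05). Both genes stood apart between the groups by more than either pair of replicates differed. Gbp7, which works in oxidative killing of microbes, went from 61.4 and 64.0 to 75.8 and 76.2 CPM (0.31 ± 0.06). Gbp2, which gathers on vacuoles that hold parasites or bacteria, went from 49.997 and 48.3 to 57.2 and 60.8 CPM (0.29 ± 0.06). Gbp4 was at 56.1 and 58.7 against 64.8 and 63.6 CPM (0.19 ± 0.06, adjusted p = 0.02, edgeR). In all 5 the groups did not overlap. Gbp5, a promoter of inflammasome assembly, and Gbp8 lay at 0.15 and 0.12 and missed the threshold. Gbp6 shares 65.6% of its 90-base transcript windows with other genes, mostly the predicted gene Gm43302 and Gbp10, so its value is uncertain as to gene. Gbp4 and Gbp8 also overlap on the same strand.

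Of the 7 IRGs, 5 rose, 1 fell and 1 was not called. Ifi47 was at 224 and 220 CPM in sgScr and 242 and 266 in sgArid1a (0.22 ± 0.06, adjusted p = 0.0076, edgeR). Igtp (Irgm3), a regulatory IRG that keeps effector IRGs off the cell's own membranes, was at 56.8 and 54.3 against 73.8 and 74.6 CPM (0.44 ± 0.06, adjusted p = 5.2e-05). Irgm1, which has the same guarding role and is needed for lymphocyte survival under interferon-gamma, was at 28.2 and 27.6 against 34.4 and 35.7 CPM (0.36 ± 0.06). For these 3 genes every sgArid1a value exceeded every sgScr value. Iigp1, an effector IRG that breaks parasite vacuoles, was scarce at 4.63 and 4.25 against 7.33 and 6.57 CPM (0.66 ± 0.12, adjusted p = 0.00055, edgeR). Tgtp1 was at 6.28 and 7.30 against 7.41 and 10.1 CPM (0.42 ± 0.13, adjusted p = 0.012, edgeR). Its lower sgArid1a sample barely exceeded the higher sgScr sample, and without sgArid1a replicate 2 the value was 0.19 with adjusted p = 0.21. Tgtp2 went the other way, from 33.4 and 33.3 to 29.6 and 28.6 CPM (-0.17 ± 0.07, adjusted p = 0.043, edgeR). Tgtp1 shares 72.0% of its transcript windows with Tgtp2, and Tgtp2 shares 78.6% of its own with Tgtp1. A read can therefore often not be placed between them. The Tgtp2 direction turned to 0.22 when every cell was thinned to 1500 UMIs. Irgm2 was at 0.16 and not called, and Igtp and Irgm2 overlap on the same strand.

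The 3 immunoproteasome subunits all rose, by similar amounts. Psmb8 was at 749 and 766 CPM in sgScr and 1031 and 1103 in sgArid1a (0.52 ± 0.07, adjusted p = 2.3e-05, edgeR). Psmb9 was at 259 and 258 against 368 and 386 CPM (0.57 ± 0.06, adjusted p = 4.7e-06). Psmb10 was at 189 and 192 against 261 and 274 CPM (0.51 ± 0.06, adjusted p = 8.9e-06). These subunits replace the 3 catalytic subunits of the standard proteasome, Psmb6, Psmb7 and Psmb5, and those counterparts rose too. Psmb6, the counterpart of Psmb9, went from 187 and 189 to 310 and 303 CPM (0.74 ± 0.06, adjusted p = 6.8e-07, edgeR), and Psmb5, the counterpart of Psmb8, from 196 and 190 to 287 and 307 CPM (0.65 ± 0.06). Psmb7 was at 0.45.

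Peptide loading genes changed little. Tap1, a subunit of the TAP transporter, was at 125 and 127 CPM in sgScr and 131 and 148 in sgArid1a (0.17 ± 0.06, adjusted p = 0.028, edgeR), although it shares its promoter region with Psmb9. Tap2, the partner subunit, was at -0.08 and Tapbp, which bridges TAP and class I molecules, at 0.05, neither called. Without sgScr replicate 1 the Tap1 call was lost (0.18, adjusted p = 0.18, edgeR), as it was without sgScr replicate 2 (0.16, adjusted p = 0.27) and without sgArid1a replicate 2 (0.12, adjusted p = 0.067).

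MHC class I genes did not follow the GTPases. H2-K1, a classical heavy chain, was at 2284 and 2321 CPM in sgScr and 2121 and 2341 in sgArid1a (-0.02 ± 0.07, adjusted p = 0.86, edgeR), with overlap. B2m, the light chain, was at 1922 and 1966 against 2235 and 1904 CPM (0.12 ± 0.09, adjusted p = 0.28), where the 2 sgArid1a samples fell on either side of sgScr. H2-D1, the other classical heavy chain of this strain, was lower, going from 1846 and 1860 to 1504 and 1681 CPM (-0.19 ± 0.07, adjusted p = 0.043, edgeR). Without sgScr replicate 1 or sgScr replicate 2 it was no longer called (-0.18 with adjusted p = 0.31, and -0.21 with adjusted p = 0.22). The H2-Q4 gene, a non-classical heavy chain, fell furthest, from 194 and 204 to 125 and 143 CPM (-0.54 ± 0.06, adjusted p = 1.1e-05, edgeR). The other non-classical genes were not called: H2-Q6 at -0.15, H2-Q7 (Qa-2) at -0.09, H2-T22 at 0.09 and H2-T23 (Qa-1, the ligand of the receptor CD94/NKG2A) at 0.11. H2-Q6, H2-Q7 and H2-T22 share 13.2, 13.8 and 11.8% of their transcript windows with other class I genes.

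**Figure D2:**
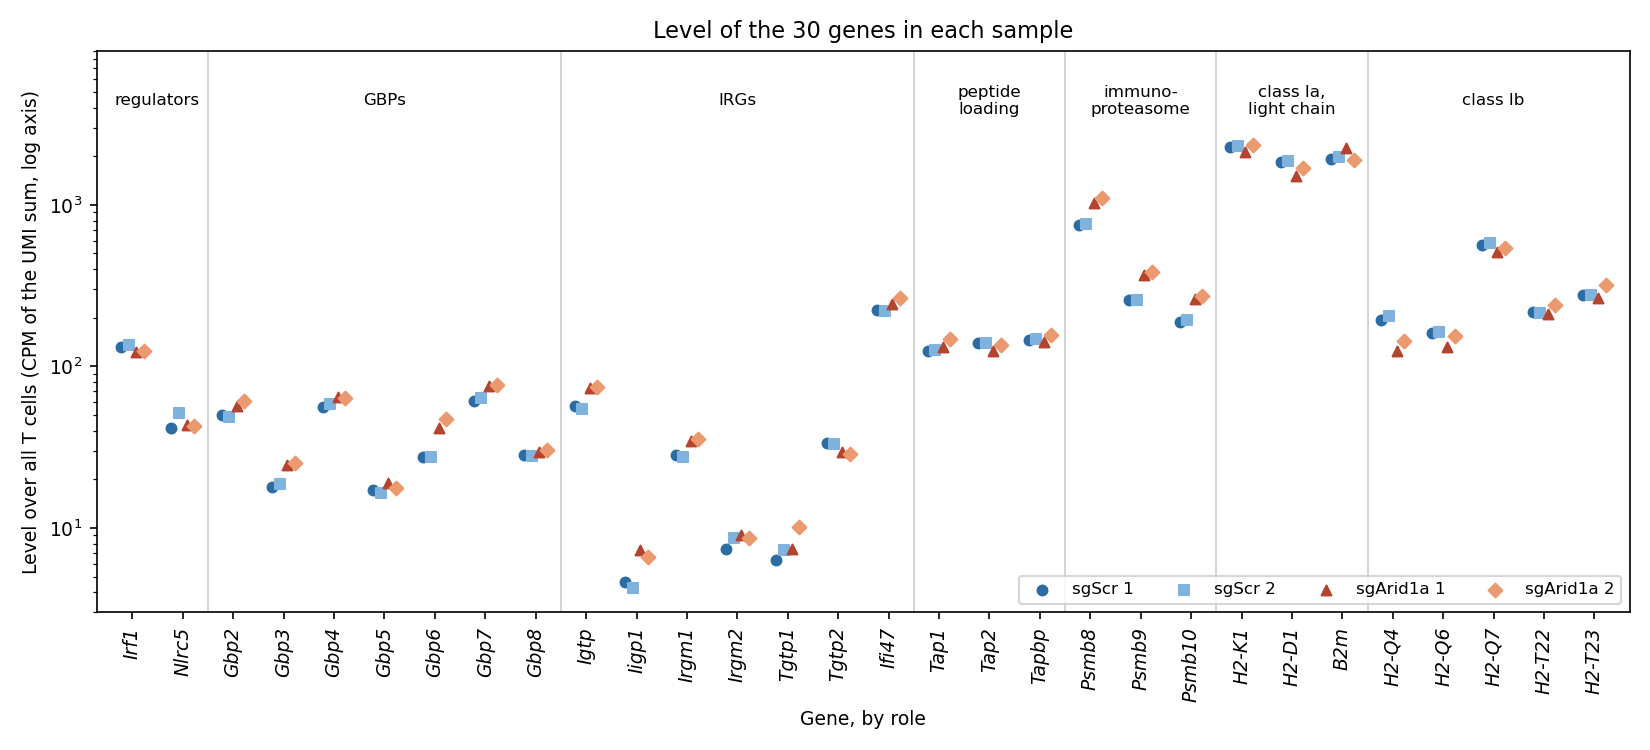
Points give the CPM of each gene in each of the 4 samples on a log axis, with genes grouped by role and no averaging. The sgArid1a points sit above the sgScr points in the immunoproteasome panel and for Gbp3, Gbp6, Igtp, Irgm1 and Iigp1, and below them for H2-Q4.

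Summed levels showed the same contrast between groups of genes. The 14 GTPases together took 619 and 617 CPM in sgScr and 716 and 752 in sgArid1a, a log2 ratio of 0.25. The immunoproteasome took 1197 and 1217 against 1659 and 1763 CPM (0.50), peptide loading 411 and 414 against 397 and 439 CPM (0.02), and MHC class I 7461 and 7583 against 7106 and 7323 CPM (-0.06). With 2 samples against 2, the smallest p of an exact two-sided permutation test is 0.333, so no test was made of these sums. Of the 14, 6 genes kept their higher call under all 13 alternatives tried (Gbp3, Gbp6, Gbp7, Psmb8, Psmb9 and Psmb10), and of the 3 lower genes only H2-Q4 did so. When cells were held to at least 1000 detected genes and at most 5% mitochondrial UMIs, which kept 4828 of 10695 cells in sgArid1a 1, 6 of the 30 genes were higher and 3 lower, against 25.6% and 23.7% of all genes tested, and the median of the 30 genes was 0.05. The higher share was then below that of all genes. Without sgArid1a replicate 1, the median of the 30 genes was 0.15.

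T cell states differ in RNA content and in these genes, so the cells were clustered without the 30 genes. Listed type I interferon-stimulated genes, other interferon-induced GTPases and other class I genes were left out as well. Interferon-responsive genes outside those lists could still shape the classes. Classes carry a name ending in "-like" where at least 3 fixed markers led them, and otherwise a number. Names were rebuilt from markers and may differ from those of the study. Each of 10 classes had at least 50 cells in every sample. Cluster 3 was led by G0s2, Treml2, Id3, Ms4a4c, Tgtp1, Usp18, Fcgrt, Ly6c2, Isg15 and Ifit3. It held 324 and 273 cells in sgScr and 1915 and 1367 in sgArid1a. The memory-like class had Ifitm1, Ifit3 and Ifit1 among its 10 leading genes. Leading genes can include genes left out of the clustering. Exhausted-like cells numbered 368 and 378 in sgScr and 1160 and 1420 in sgArid1a. Cycling-like cells numbered 234 and 226 in sgScr and 1027 and 1302 in sgArid1a. Cluster 6 was led by Cd163l1, Ifngas1 and Cxcr5, and cluster 10, of only 310 cells, had a median of 1249 UMIs. The naive/central memory-like class joined cluster 1 (1823 and 1609 cells in sgScr, 1149 and 1535 in sgArid1a) and cluster 2 (2007 and 1874, and 773 and 944).

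As a share of all UMIs, dividing and freshly activated cells had the lowest GTPase levels in both groups, while the order of the highest classes depended on the group. In UMIs per cell, without thinning, the order differed. Cycling-like cells, with a median of 14251 UMIs, held on average 6.07 and 6.14 GTPase UMIs in sgScr and 4.01 and 7.73 in sgArid1a. Early-activated-like cells held 2.66 and 2.81, and 2.35 and 4.49. Naive/central memory-like cells held 2.53 and 2.38, and 1.64 and 2.91. Among the 10 classes, the mean summed level in sgScr was 931 CPM in cluster 10, 810 in memory-like cells and 693 in cluster 3, against 480 in exhausted-like, 346 in cycling-like and 289 in early-activated-like cells. In sgArid1a it was 1238 CPM in memory-like cells, 1206 in cluster 3, 1080 in Ly49-positive-like cells and 915 in cluster 10, against 492 in exhausted-like, 405 in early-activated-like and 376 in cycling-like cells. Memory-like cells and cluster 3 overlapped in sgArid1a. The immunoproteasome stood high in exhausted-like, cycling-like and memory-like cells of both groups, at 1729, 1691 and 1542 CPM in sgScr and 1929, 1858 and 1959 in sgArid1a, and was at 880 and 1034 CPM in naive/central memory-like cells. MHC class I had its highest mean in effector-like cells, with 11225 CPM in sgScr and 10406 in sgArid1a, where it overlapped memory-like cells. Its lowest mean among the 10 classes was in cluster 3 in sgScr (6178 CPM) and in cycling-like cells in sgArid1a (5912 CPM). Irf1 split the classes into separate ranges. Its CPM lay between 134.9 and 212.7 across all samples of the 7 highest classes, where each class overlapped the next in order, and between 52.4 and 95.2 in exhausted-like, early-activated-like and cycling-like cells. Gbp2 had its lowest means in the same 3 classes in both groups, at 24.8, 16.6 and 14.9 CPM in sgScr and 25.3, 27.1 and 18.3 in sgArid1a, against 67.6 and 126 CPM in naive/central memory-like cells. Iigp1 was listed at 0 in every effector-like sample and averaged 6.81 CPM in sgScr and 17.4 in sgArid1a in memory-like cells.

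**Figure D3:**
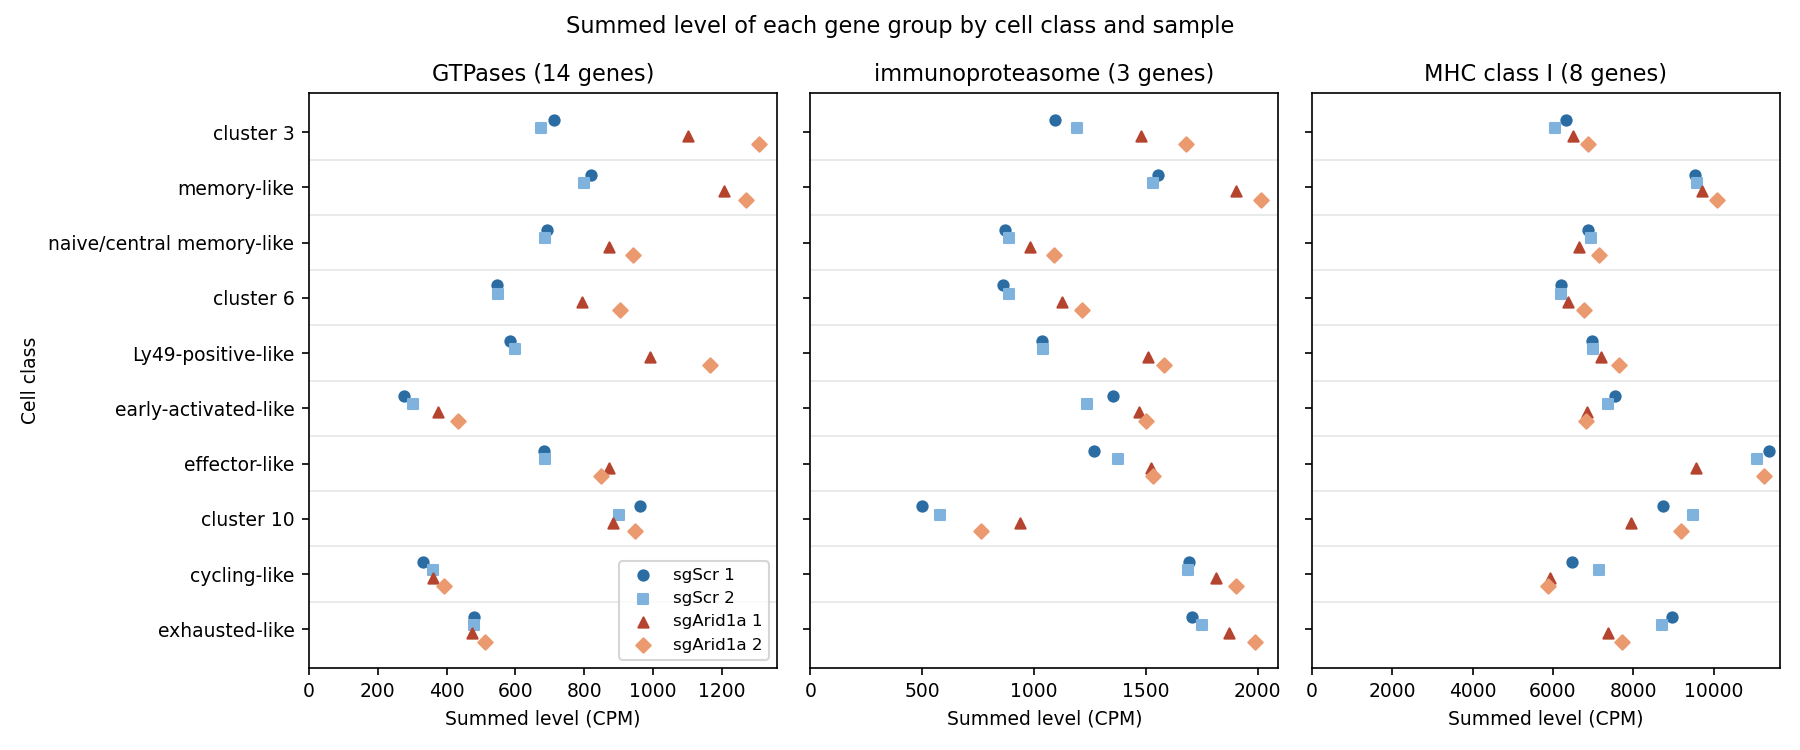
Each row is a cell class, the horizontal axis is the summed CPM of the gene group, and the 4 symbols are the samples. GTPase points of sgArid1a lie to the right of sgScr in the upper rows and overlap them in exhausted-like cells (474 and 511 against 480 and 480 CPM), while class I points of sgArid1a lie to the left in exhausted-like and cycling-like cells.

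The group difference was then tested inside each class. Over 277 tests of a gene in a class, 82 were higher in sgArid1a and 8 lower (edgeR, adjusted p under 0.05 over all genes of the class). Of all genes tested, 0.409% to 6.65% were higher and 0.120% to 5.25% lower, depending on the class. These tests reuse the same 4 samples and are not independent of one another.

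In cluster 3 all 14 GTPases rose, with a median log2 fold change of 1.03, against -0.01 over all genes of the class and 1.04% of genes called higher. Iigp1 (1.96 ± 0.37, adjusted p = 0.00011, edgeR) and Irgm2 (1.64 ± 0.35) had the largest values. Igtp went from 66.7 and 76.9 to 131 and 158 CPM (1.04 ± 0.13, adjusted p = 1.5e-10). The 3 immunoproteasome subunits, Irf1, Tap1 and H2-T23 also rose, which gave 20 of 30 genes, and none fell.

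Memory-like cells changed in the same direction in 21 of 30 genes and in none downward, where 3.19% of all genes were higher and 1.19% lower. Of the 14 GTPases 13 rose, with a median of 0.67, and Gbp5 was not called. Gbp6 went from 37.7 and 34.9 to 77.8 and 83.0 CPM (1.22 ± 0.09, adjusted p = 2.8e-08, edgeR), Igtp from 82.7 and 74.3 to 132 and 138 CPM (0.85 ± 0.08), and Ifi47 from 279 and 260 to 406 and 449 CPM (0.73 ± 0.07). A further 3 class I genes rose here, B2m (0.32), H2-T22 (0.33) and H2-T23 (0.38). H2-K1 (0.11) and H2-D1 (-0.07) were not called.

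Naive/central memory-like cells had 12 of 30 genes higher, and none lower, with 2.77% of all genes called higher and 1.10% lower. Cluster 2 was the larger part of this class in both sgScr samples and the smaller part in both sgArid1a samples. The part of that shift in these values was not tested. Gbp2 went from 68.7 and 66.4 to 123 and 129 CPM (0.97 ± 0.07, adjusted p = 1.6e-06, edgeR), and Igtp from 62.5 and 59.3 to 88.8 and 87.3 CPM (0.59 ± 0.08). Irf1 rose by 0.38 ± 0.07 (adjusted p = 0.0092, edgeR), from 145 and 151 to 170 and 195 CPM. None of the 8 class I genes was called.

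Cluster 6 and Ly49-positive-like cells also had GTPases higher. In cluster 6, 8 of 14 GTPases rose, with a median of 0.81, where 0.798% of genes were higher. In Ly49-positive-like cells, which carry Klra receptors for class I molecules, 6 of 13 tested GTPases rose where 1.55% of genes were higher. Igtp there went from 43.3 and 53.1 to 119 and 124 CPM (1.40 ± 0.15, adjusted p = 8.7e-06, edgeR) and Ifi47 from 200 and 206 to 366 and 442 CPM (1.06 ± 0.11).

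Exhausted-like cells had a different profile, with 2 of 28 tested genes higher and 5 lower, where 6.65% of all genes were higher and 5.25% lower. The GTPase median was -0.01, and Gbp6 alone rose (0.65 ± 0.14, adjusted p = 0.0052, edgeR). Psmb10 rose by 0.31 ± 0.08. Irf1 fell from 93.0 and 95.2 to 67.5 and 75.0 CPM (-0.34 ± 0.09, adjusted p = 0.024, edgeR). Among class I genes 4 fell: H2-D1 (-0.33 ± 0.09), H2-Q4 (-0.58 ± 0.10, from 144 and 144 to 80.6 and 103 CPM), H2-Q6 (-0.41 ± 0.09) and H2-Q7 (-0.25 ± 0.08). H2-K1 was at -0.20 and not called.

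Cycling-like cells had 1 gene higher, Gbp6 (0.79 ± 0.15), and 2 lower, H2-D1 (-0.29) and H2-Q4 (-0.42), where 3.32% of genes were higher and 2.67% lower. Early-activated-like cells had 3 GTPases higher, Gbp4 (0.82), Igtp (0.85) and Ifi47 (0.64), and H2-Q4 lower (-0.52), where 2.41% were higher and 1.31% lower. No member was called in effector-like cells or cluster 10, where 24 and 20 of the 30 genes could be tested. Of all genes, 0.409% and 3.06% were higher there and 0.120% and 0.930% lower. In those 2 classes the smallest samples had 68 and 55 cells.

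**Figure D4:**
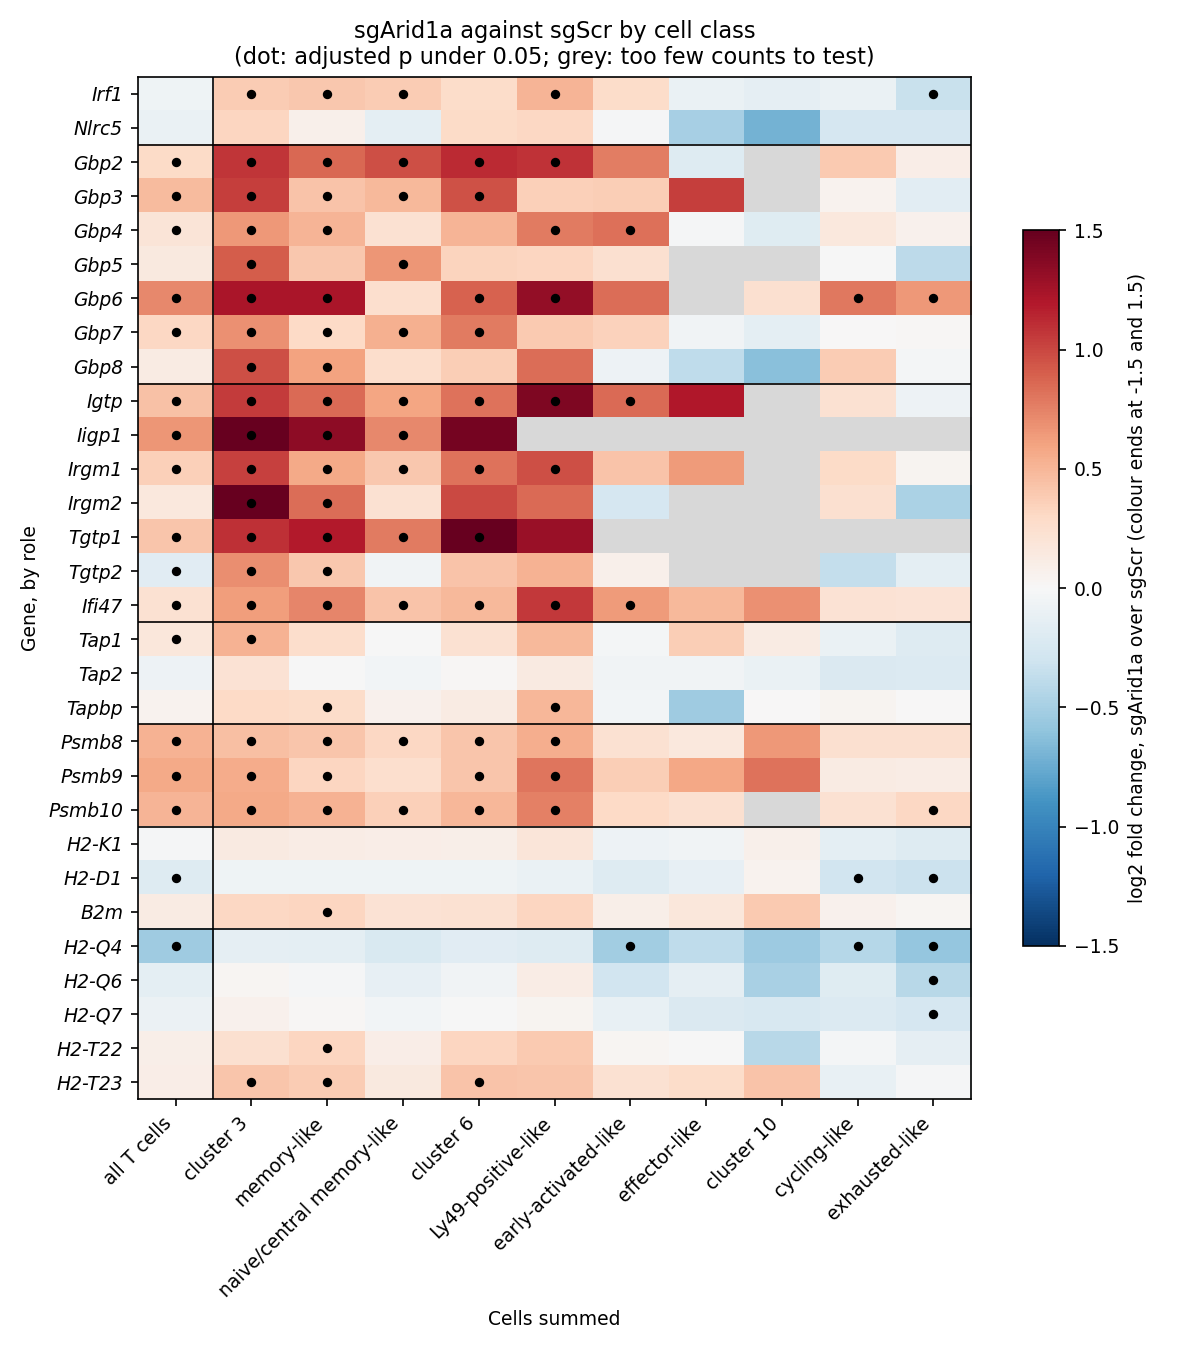
Colour gives the log2 fold change of sgArid1a over sgScr for each gene (rows, by role) in all T cells and in each of 10 classes (columns), a dot marks an adjusted p under 0.05 and grey a gene with too few counts. GTPase and immunoproteasome rows are red with dots from cluster 3 to Ly49-positive-like cells, and the blue dots gather in class I rows of exhausted-like and cycling-like cells.

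Whether the group effect differed between exhausted-like and naive/central memory-like cells was tested directly, with an interaction term and each sample as a block. The log2 fold change was lower in exhausted-like cells for 13 of 30 genes and higher for none (edgeR), against 3.95% and 2.74% of all 11205 tested genes. Irf1 differed by -0.70 ± 0.09 (adjusted p = 2.6e-08), with a rise in one class and a fall in the other. Among GBPs 4 differed, Gbp2 by -0.85 ± 0.15, Gbp3 by -0.63 ± 0.18, Gbp5 by -1.07 ± 0.20 and Gbp7 by -0.51 ± 0.11, and Igtp by -0.65 ± 0.13. Of the 8 class I genes, 7 differed by less, from -0.31 for H2-Q4 to -0.17 for B2m, while H2-T23 was not called (-0.14, adjusted p = 0.15). None of the 7 was called without the sample block (edgeR, adjusted p from 0.24 for H2-K1 to 0.61 for B2m). Of these 7, H2-D1, H2-Q4, H2-Q6 and H2-Q7 were below 0 in both classes and further below in exhausted-like cells, as for H2-Q4 at -0.23 and -0.58. No difference was called for the immunoproteasome, at -0.05 ± 0.04 for Psmb8, -0.13 ± 0.06 for Psmb9 and -0.03 ± 0.07 for Psmb10. Gbp6 leaned the other way at 0.44 ± 0.15 (adjusted p = 0.068, edgeR), with 0.73 (adjusted p = 0.0078) without sgScr replicate 2 and 0.20 (adjusted p = 0.70) without sgScr replicate 1. The Irf1, Gbp2, Gbp5 and Igtp calls were kept under all 5 alternatives. Without the sample block 4 of the 13 genes were called, and 7 of them were called without sgScr replicate 1 and also without sgArid1a replicate 2.

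**Figure D5:**
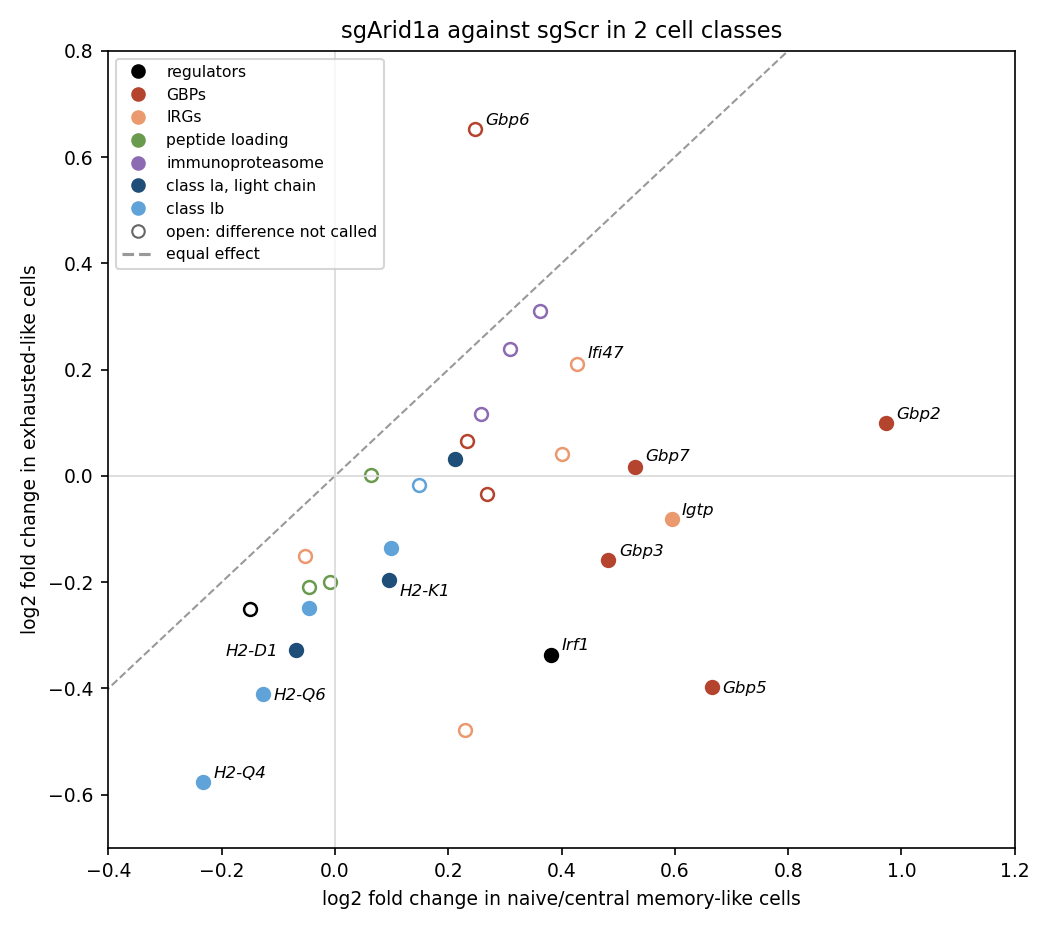
Each point is a gene, placed by its log2 fold change in naive/central memory-like cells (horizontal) and in exhausted-like cells (vertical), filled where the difference was called, with the dashed line marking equal effects. Irf1, Gbp2, Gbp3, Gbp5, Gbp7 and Igtp lie far to the right of the line, the immunoproteasome points lie near it, and Gbp6 lies above it.

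A common mix of 11 classes, with each sample's class levels weighted alike, was computed to compare levels with the classes held at equal shares. Under this mix all 14 GTPases were above 0 with a median log2 ratio of 0.49, and their sum was at a log2 ratio of 0.52 in place of 0.25. Ifi47 came to 236 and 232 against 310 and 355 CPM, and Gbp2 to 52.7 and 51.1 against 87.5 and 97.8 CPM. Tgtp2 turned from lower to a log2 ratio of 0.19, and Irf1 came to 0.26, with 138 and 142 against 162 and 174 CPM. The immunoproteasome moved the other way, from 0.50 to a sum of 0.30. MHC class I came to -0.005 in sum, with 3 of 8 genes above 0, and H2-Q4 to -0.30. These values have no test of their own.

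Single cells gave the same order for the GTPases when depth was equal. After thinning each cell to 1500 UMIs, 9.43 and 9.61% of sgScr cells and 16.9 and 19.2% of sgArid1a cells held at least 3 GTPase UMIs (exact two-sided permutation p = 0.333, the smallest possible). Cells under that depth, 1767 in sgArid1a 1 and 191 to 331 in the others, were left out. Without thinning the groups overlapped, at 42.6 and 40.6% against 38.2 and 60.8%. In memory-like cells the thinned shares were 13.4 and 11.8% against 25.7 and 27.6%, and in exhausted-like cells 5.46 and 7.16% against 5.51 and 7.75%. No class here is known to lack these genes, so a share from free RNA could not be set.

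Other genes of the pathway were read from fixed lists. Over all T cells 28.0% of tested genes were higher and 26.4% lower, which is the background for the counts below. Of 12 interferon-gamma signalling genes 3 rose and 5 fell, so the share that rose was close to that of all genes. Ifng itself went from 46.7 and 27.2 to 117 and 114 CPM (1.67 ± 0.16, adjusted p = 2.1e-06, edgeR). Irf8, an interferon-gamma-induced transcription factor, rose by 1.39 ± 0.07. Ifngr2, the signalling chain of the receptor, fell from 14.3 and 14.2 to 4.68 and 5.45 CPM (-1.45 ± 0.09, adjusted p = 5.7e-08, edgeR). Socs3, an inhibitor of JAK signalling, fell from 88.6 and 85.1 to 43.5 and 57.0 CPM (-0.76 ± 0.09). Both Ifngr2 and Socs3 were among the 10 leading genes of the naive/central memory-like cluster 1. That cluster held 1823 of 7636 and 1609 of 7158 T cells in sgScr, and 1149 of 10695 and 1535 of 12771 in sgArid1a. The part of this smaller share in the 2 falls was not tested.

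The other interferon-induced GTPases went both ways, with 1 of 5 tested genes higher and 3 lower. Gbp10 rose (1.22 ± 0.12), and it shares sequence with Gbp6. The predicted GTPase genes 9930111J21Rik1 and 9930111J21Rik2 fell, by 0.60 and 0.46 on the log2 scale, and so did Gbp9. Of 8 other peptide processing and loading genes 6 rose and none fell, against 28.0% and 26.4% of all tested genes. Psme2, a subunit of the PA28 proteasome activator, was at 464 and 473 against 709 and 703 CPM (0.62 ± 0.07), and Calr, a chaperone of class I folding, at 120 and 133 against 195 and 185 CPM (0.62 ± 0.07).

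Of 6 tested class I and class I-like genes beyond the 8, none rose and Cd1d1 (-0.50 ± 0.09) and Mr1 (-0.63 ± 0.13) fell. Of the 7 genes for factors that bind class I promoters with Nlrc5, only Nfyb, a subunit of the Y box factor NF-Y, was called (0.44 ± 0.06). Many GTPases also answer type I interferon. Of 22 tested type I interferon-stimulated genes 16 rose and none fell, against 28.0% and 26.4% of all tested genes. The smallest p-values were those of Isg15, a ubiquitin-like modifier (1.35 ± 0.07), and Rtp4 (0.90 ± 0.06).

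Markers of other cells moved with the groups as well, where 28.0% of all tested genes were higher and 26.4% lower. Some of these genes also mark T cell classes here. The macrophage list summed to 116 and 114 CPM in sgScr and 159 and 165 in sgArid1a, with 5 of 6 tested genes higher, nearly all of the level from Cst3. Dendritic cell markers summed to 62.5 and 75.1 CPM in sgScr and 114 and 113 in sgArid1a, with 4 of 7 tested genes higher, 1 lower and Siglech at 0. That list holds Ccr9, which was also a leading gene of the naive/central memory-like cluster 2. Natural killer markers summed to 68.9 and 70.5 against 87.4 and 81.6 CPM, with 3 of 5 higher and 1 lower. Fcer1g and Klrb1c on that list were also leading genes of the Ly49-positive-like class, and Eomes is a memory marker here. The Ly49-positive-like class held 231 and 204 cells in sgScr and 782 and 967 in sgArid1a. B cell markers summed to 155 in both sgScr samples and to 116 and 126 CPM in sgArid1a, with both tested genes lower and Pax5 at 0. CD4 T cell and melanoma lists stayed at or under 4.30 CPM. The part of these cells or genes in the results was not tested.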

How the data were processed

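The deposited matrices hold whole-number UMI counts per gene and cell barcode, 1 per sample, not normalized. Per the file headers the authors' counts came from Cell Ranger 6.0.1. A different version, 3.0.2, stands in the submitters' processing notes beside Seurat and the build mm10, and which gene annotation was used is not stated there. The 30 genes, the other gene lists and the marker lists were chosen with earlier results of these data known. All 30 genes are named, with sample values in full for the regulators, Tap1, B2m, H2-K1, H2-D1, the immunoproteasome and each GTPase called over all T cells, and with the 2 smallest p per direction of each pathway list. Some genes of the other lists are not reported here.

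Cells needed 500 detected genes or more and a mitochondrial share of 10% or less, and 56 cells with B cell and MHC class II genes were left out. Cells were clustered with scanpy 1.11.5 and leidenalg 0.10.2 (2000 variable genes, 30 components, 15 neighbours, resolution 0.8). No doublets were removed, and leaving out cells with 2 or more Trbv segments was an alternative. Sums of counts in each sample (all T cells, or 1 class) were tested with edgeR 4.0.16 (TMM, quasi-likelihood, R 4.3.3). CPM are sums divided by the sample's total. Tests on simulated data recovered 75.8% of 1.5-fold and 40.0% of 1.25-fold changes over all T cells (12792 genes, 100 changed at each size). Shared transcript windows of 90 bases and overlaps were read from GENCODE M21. Strand use in counting is not stated, so genes that overlap on either strand are uncertain. Samples differ in depth from 32209615 to 81447081 UMIs, and shares of cells cover counting error only.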

Additional observations from a re-analysis of the deposited data

Results flagged for a closer look

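The group effect differed between exhausted-like and naive/central memory-like cells for 13 genes, by edgeR's interaction term with adjusted p under 0.05. In exhausted-like minus naive/central memory-like cells the log2 differences were -0.70 for Irf1, -0.85 for Gbp2, -0.63 for Gbp3, -1.07 for Gbp5, -0.51 for Gbp7 and -0.65 for Igtp. For class I genes they were -0.27 for H2-K1, -0.24 for H2-D1, -0.17 for B2m, -0.31 for H2-Q4, -0.26 for H2-Q6, -0.19 for H2-Q7 and -0.21 for H2-T22. The class I calls rest on the sample block. Without it none of these class I genes was called, and only Irf1, Gbp2, Gbp5 and Igtp were. The standard error for H2-K1 was 0.03 with the block and 0.10 without it. The classes also differed in depth, with a median of 7071 UMIs per cell in the exhausted-like cluster and 2652 and 3489 in the naive/central memory-like clusters, and the part of depth was not tested.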

How the results depend on the processing

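Over all T cells the counts of the 30 genes higher and lower were 14 and 3 in the main analysis. They were 6 and 3 with the stricter cell filter, 18 and 1 once cycling-like cells were dropped, 17 and 1 with Trbv13-1 and Trbv20 cells dropped, and 19 and 1 with cells thinned to 1500 UMIs. Of all genes tested, 25.6, 23.3, 20.9 and 19.9% were higher in these 4 settings, in that order, and 23.7, 21.8, 19.2 and 16.7% lower. The higher share of the 30 genes was below that of all genes with the stricter filter and above it in the others (60.0, 56.7 and 63.3%). Their lower share was 10.0, 3.33, 3.33 and 3.33%, below that of all genes in each setting. Leaving out 1 sample at a time gave medians of the 30 genes from 0.13 to 0.19. Fewer of the 30 genes, and fewer of all genes, were called without sgScr replicate 1 or without sgScr replicate 2. The replicate numbers did not pair the samples (correlation of deviations -0.07). A replicate block gave 14 higher and 2 lower, against 28.2% and 27.0% of all genes tested. Within classes, 82 higher and 8 lower calls became 40 and 5 with DESeq2 (38 and 5 of them shared), 47 and 3 with thinned cells, an alternative chosen after seeing the data, and 65 and 4 over 6 classes at Leiden resolution 0.5. Without 1 sample they were 31 to 102 and 3 to 11, lowest without sgScr replicate 2 (31 and 3) and sgScr replicate 1 (34 and 4). With sgArid1a replicate 1 left out 4 were lower. No call turned in sign in the settings that keep the 10 classes (not computed at resolution 0.5). Shares over all genes are not given for these settings, so the counts within classes have no background beside them. The 13 differences between classes became 4 with no replicate block and 7 to 12 without 1 sample, of which 7 to 11 were among the 13. The further call, without sgScr replicate 2, was Gbp6 in the opposite direction.

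Directions turned for Tgtp2, which was called lower at -0.17, and for genes that were not called, and the cause was not tested. When cycling-like cells were left out the values were Irf1 0.13, Nlrc5 0.035, Tgtp2 0.11 and H2-K1 0.085. When Trbv13-1 and Trbv20 cells were left out they were Irf1 0.13, Tgtp2 0.14 and H2-K1 0.055, and without cells with 2 or more Trbv segments H2-K1 was 0.0054. With thinned cells they were Irf1 0.16, Nlrc5 0.043, Tgtp2 0.22, Tap2 0.022, H2-K1 0.11 and H2-Q7 0.0027. With the stricter filter they were Irgm2 -0.023 and Tapbp -0.0091. Leaving out 1 sample gave Nlrc5 from -0.22 to 0.034, H2-K1 from -0.058 to 0.020, B2m from -0.034 to 0.26 and H2-T23 from -0.0027 to 0.20. For the differences between classes it gave Nlrc5 from -0.35 to 0.17, Iigp1 from -0.26 to 0.50, Tgtp2 from -0.31 to 0.064 and Tapbp from -0.11 to 0.027.

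Thinning moved the log2 ratio of sums to 0.49 for GTPases, 0.58 for the immunoproteasome and 0.039 for MHC class I. TMM-scaled CPM, with no thinning, gave -0.031 for MHC class I. Leaving out 1 sample gave 0.21 to 0.28 for the GTPase sum. The share of cells with at least 3 GTPase UMIs differed by 5.57 percentage points at 1000 UMIs per cell, against 8.52 at 1500. At the common mix, leaving out 1 sample gave medians of 0.24 to 0.34 for the immunoproteasome and -0.13 to 0.0026 for MHC class I, which was -0.10 with equal class weights and -0.06 in the main analysis. Genes at a few CPM could not be tested in every class. Iigp1 was tested in 4, Tgtp1 in 5 and Irgm2 in 8 of the 10 classes. Neither Iigp1 nor Tgtp1 was tested in exhausted-like cells alone.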
